A study of Homo sapiens with 16 samples.

Results

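The genes described here encode the proteins of the cytosolic ribosome. They were chosen by name: protein-coding genes whose symbol begins with RPL (large subunit) or RPS (small subunit), present in both count tables, leaving out the ribosomal S6 kinases, the Y-linked RPS4Y genes, symbols containing BP and symbols with a hyphen. The rule gave 85 of the 58735 genes in the tables, 53 of the large and 32 of the small subunit. Among them, 8 are paralogs whose symbol is that of another member followed by L or L1: RPL3L, RPL7L1, RPL10L, RPL22L1, RPL26L1, RPL36AL, RPL39L and RPS27L. FAU and RACK1, which encode ribosomal proteins under other names, fall outside the rule and are given separately.

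The study compared 2 human triple-negative breast cancer cell lines, SUM159PT and MDA-MB-231, after transfection with a guide RNA. The groups were SUM159PT with sgYES1, a guide against the Src-family kinase gene YES1, SUM159PT with the non-targeting guide sgNTS, MDA-MB-231 with sgYES1 and MDA-MB-231 with sgNTS, all collected 48 h after lipofection, with 4 libraries each and 16 in all. All were labelled WT in genotype, every control also went through lipofection, and no source used here names the protein that acted with the guides. The submitters describe the replicates as technical, so the p-values below measure only the spread between these samples and not between independent cultures. The lines served as bulk populations after transient transfection, in which fewer cells of a type and less RNA per cell cannot be told apart.

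Messenger RNA was selected by its poly-A tail before sequencing. The tables held 14352042 to 20884267 counts per library in SUM159PT and 17156454 to 25124164 in MDA-MB-231. YES1 itself, the targeted gene, was at 39.7 ± 0.754 CPM (counts relative to the scaled library total) in sgYES1 and 94.2 ± 3.21 CPM in sgNTS libraries of SUM159PT, and at 42.7 ± 1.10 and 108 ± 3.07 CPM in those of MDA-MB-231 (SD, n = 4 each), a log2 fold change of -1.24 ± 0.0512 SE (edgeR adjusted p = 1.65e-13) and of -1.34 ± 0.0405 SE (edgeR adjusted p = 2.76e-11). Of the defining receptors of the triple-negative type, ESR1 was at most 0.263 CPM in any group mean and PGR was at 0 in all groups, whereas ERBB2 was present at 96.2 to 110 CPM. VIM, KRT8, KRT18 and EGFR were detected in all groups. A list of 8 markers of blood and endothelial cells summed to 2.21 to 6.99 CPM in sgYES1 and 1.43 to 2.13 CPM in sgNTS libraries of SUM159PT, and to 1.97 to 3.67 and 0.985 to 2.21 CPM in those of MDA-MB-231, with CD3E and HBB at 0 throughout. PECAM1 and HBA1 made up much of these sums, and their part in the results below was not tested. The library of MDA-MB-231 sgNTS replicate 4 stood apart from its group: its counts differed from those of replicates 1, 2 and 3 by a chi-square per degree of freedom of 29.1, 19.6 and 9.38, where the lowest value for any pair of replicates was 2.33. Values without it are given where they change a count of ribosomal protein genes by more than 1.5 times. Counts of the other gene lists were not computed without it.

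The cytosolic ribosome reads messenger RNA with its small subunit and joins amino acids with its large subunit. Its proteins are incorporated with ribosomal RNA during an assembly that begins in the nucleolus. In mammals nearly all ribosomal protein mRNAs begin with a C followed by an unbroken run of pyrimidines, the 5′ terminal oligopyrimidine (TOP) tract, through which the kinase complex mTORC1 and the RNA-binding protein LARP1 control their translation and stability together. Rapidly growing cancer cells carry these mRNAs among their most abundant transcripts, while several of the L-suffixed paralogs are known from particular tissues.

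The TOP tract can be read at the annotated start of many of these genes. The lines below show 15 bases before and 15 bases from the annotated start on the gene's own strand (RefSeq, GRCh38.p14), with a C followed by at least 4 pyrimidines at the start in capitals. For a gene with several annotated starts, the start with the longest tract was taken. RPLP0, RPS3, RPL12, RPS12 and RPL3 are shown as examples from the guide comparisons below. Of the genes given by library but not shown, RPL10A, RPL4, RPL6, RPL9, RPS28 and RPS4X lack such a tract at the annotated start. Others such as RPL13A and RPLP2 have it. In the windows of RPL10A, RPL4, RPL9 and RPS28 a pyrimidine run lies shortly past the annotated start. Which start is used in these cells was not tested. The paralogs RPL22L1, RPL26L1, RPL36AL, RPS27L and RPL7L1 follow, with the parents RPL22, RPL26, RPL36A and RPS27.
RPLP0: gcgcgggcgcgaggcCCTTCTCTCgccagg
RPS3: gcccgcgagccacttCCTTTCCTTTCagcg
RPL12: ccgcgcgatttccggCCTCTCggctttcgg
RPS12: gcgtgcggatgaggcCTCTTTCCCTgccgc
RPL3: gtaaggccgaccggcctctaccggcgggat
RPL22: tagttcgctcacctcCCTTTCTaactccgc
RPL22L1: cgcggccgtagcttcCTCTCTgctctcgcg
RPL26: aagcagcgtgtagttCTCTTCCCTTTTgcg
RPL26L1: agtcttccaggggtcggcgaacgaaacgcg
RPL36A: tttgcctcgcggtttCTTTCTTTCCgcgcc
RPL36AL: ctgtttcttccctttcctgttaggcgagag
RPS27: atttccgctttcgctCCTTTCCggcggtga
RPS27L: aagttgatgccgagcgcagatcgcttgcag
RPL7L1: cggaagtgcggcgccgtagctaggagcgga

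The windows lie at these positions: RPLP0 at chr12:120201097-120201126 (minus strand), RPS3 at chr11:75399503-75399532 (plus strand), RPL12 at chr9:127451392-127451421 (minus strand), RPS12 at chr6:132814554-132814583 (plus strand), RPL3 at chr22:39319609-39319638 (minus strand), RPL22 at chr1:6199581-6199610 (minus strand) and RPL22L1 at chr3:170870181-170870210 (minus strand). The others are RPL26 at chr17:8383179-8383208 (minus strand), RPL26L1 at chr5:172958714-172958743 (plus strand), RPL36A at chrX:101390996-101391025 (plus strand), RPL36AL at chr14:49620612-49620641 (minus strand), RPS27 at chr1:153990747-153990776 (plus strand), RPS27L at chr15:63157463-63157492 (minus strand) and RPL7L1 at chr6:42879601-42879630 (plus strand). The annotated start of RPL3 opens a tract of 4 bases, below the minimum of 5, and those of RPL26L1, RPS27L and RPL7L1 do not begin with C. RPL36AL has a long pyrimidine run that ends 3 bases into the transcript. Of the 85 genes, 68 were matched to the promoter table. Such a tract stood at the annotated start of 47 of the 68 (69.1%), against 5.14% of the 27305 genes in the table, 28 of 38 for the large and 18 of 24 for the small subunit without paralogs, and 1 of 6 paralogs, RPL22L1. A gene was counted, here and among all genes, if any of its annotated starts had the tract, and 11 members have several starts. With every start counted once, a choice made after seeing the data, the tract stood at 47 of 84 starts of members (56.0%) and at 4.07% of all 35116 starts. With a gene counted again if any of its starts matched, CTTTCC occurred within 10 bases of the start in 27.9% of the 68 and in 1.70% of the 27305 genes. Over the 250 bases before and 50 bases after the start, CCGGAAG on either strand was found in 35.3% against 12.2%, TATAAA on either strand in 10.3% against 14.0%, and CCAAT on either strand in 35.3% against 39.7%. These matches are descriptions of letters and not of binding.

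The ribosomal protein genes took 5.61 ± 0.113% of all counts in sgYES1 libraries of SUM159PT, against 6.15 ± 0.0978% in its sgNTS libraries (SD, n = 4 each). The sgYES1 libraries of that line lay between 5.50 and 5.76% and the sgNTS libraries between 6.01 and 6.23%, without overlap. In MDA-MB-231 the share was 4.51 ± 0.126% in sgYES1 and 4.37 ± 0.108% in sgNTS libraries (SD, n = 4 each), and the groups overlapped, at 4.41 to 4.68% and 4.25 to 4.51%. The share was thus lower with sgYES1 in SUM159PT. In MDA-MB-231 the mean was higher with sgYES1, and the overlap came from sgNTS replicate 1 alone, at 4.51%. The share itself was not tested in either line. The large subunit took 3.56% in sgYES1 and 3.90% in sgNTS libraries of SUM159PT, and the small subunit 2.05% and 2.25%. The ratio of large to small subunit counts was 1.74 ± 0.00633 in sgYES1 and 1.73 ± 0.00499 in sgNTS libraries of SUM159PT, and 1.78 ± 0.0256 and 1.79 ± 0.00205 in those of MDA-MB-231, so the balance between subunits moved far less than the total. Counts from mitochondrial genes took 3.62 ± 0.114% in sgYES1 and 3.49 ± 0.0786% in sgNTS libraries of SUM159PT, and 4.60 ± 0.607% and 4.03 ± 1.26% in those of MDA-MB-231. Their part in these shares was not tested.

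**Figure D1:**
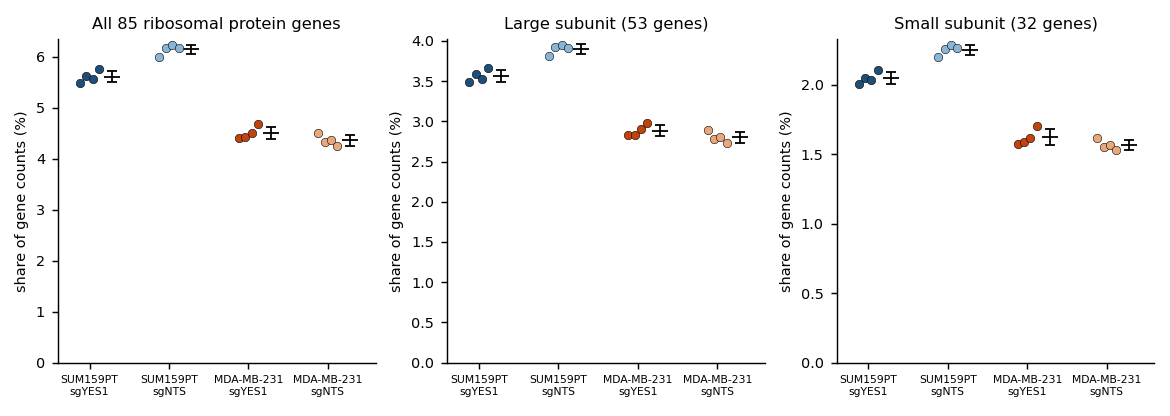
Share of all counts (percent, linear axes) taken by all ribosomal protein genes, by the large subunit and by the small subunit. Points are the 4 libraries of each group and bars the mean ± SD. In SUM159PT the sgYES1 libraries lie at 5.50 to 5.76% of counts and the sgNTS libraries at 6.01 to 6.23%, while in MDA-MB-231 the groups overlap.

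Most members were abundant. The level was at least 100 CPM for 73 of 85 genes in both groups of SUM159PT and for 71 in both groups of MDA-MB-231, and at least 1000 CPM for 16 in sgYES1 and 18 in sgNTS libraries of SUM159PT and for 8 and 11 in those of MDA-MB-231. Per kilobase of transcript, which allows levels of different genes to be compared, the median gene stood at 672 CPM per kb in sgYES1 and 732 in sgNTS libraries of SUM159PT, and at 512 and 545 CPM per kb in those of MDA-MB-231. RPS2, a small subunit protein at the mRNA entry channel, had the highest level per length in SUM159PT, with 2935 CPM per kb in sgYES1 and 3406 in sgNTS libraries. RPS18, a protein of the small subunit head, was highest in MDA-MB-231, with 1736 CPM per kb in sgYES1 and 1719 in sgNTS libraries. At the low end outside the paralogs stood RPS10, at 2.83 CPM in sgYES1 and 2.62 CPM in sgNTS libraries of SUM159PT, with 39.4% of its exon bases shared on the same strand with a read-through gene.

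In SUM159PT, sgYES1 went with lower levels of most ribosomal protein genes. Of 83 genes tested, 56 fell and 4 rose at an adjusted p under 0.05 (edgeR's quasi-likelihood test with Benjamini-Hochberg adjustment over all genes tested, as throughout). That is 67.5% lower and 4.82% higher, where among all 14479 genes tested 19.7% were called lower and 19.6% higher. The changes were small: the median log2 fold change was -0.13, which is 8.63% lower, against -0.01 over all genes tested, and those that fell ranged from -0.32 for RPL3 to -0.09 for RPL27A. The log2 fold change was negative for 77 of the 83. In 50 genes all 4 sgYES1 libraries lay below all 4 sgNTS libraries and in 3 genes above them, where 18.2% and 16.8% of all genes did so. Both subunits took part, with 35 of 51 large subunit genes lower and 3 higher (median log2 fold change -0.13) and 21 of 32 small subunit genes lower and 1 higher (median -0.14). Of the 77 members outside the paralogs, 55 fell and 1 rose. Of the 72 members at or above 100 CPM, 55 fell and 1 rose, against 26.9% and 26.4% of the 2315 other protein-coding genes above that limit. Among the 283 of these with a transcript under 1500 bases, 29.7% fell and 21.6% rose. Beyond these limits level and length were not matched: the median transcript had 843.5 bases in the 72 members and 1113 in the 283 genes. With a fold of at least 1.2 required as well, 5 genes were lower and 3 higher. The share of all genes under that limit was not computed.

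In MDA-MB-231 the same guide comparison had no common direction. Of 83 genes tested, 15 rose and 11 fell, 18.1% and 13.3%, where 20.8% and 22.1% of all 15427 genes tested were called higher and lower. The median log2 fold change was 0.04, against 0.01 over all genes. Of the 72 members at or above 100 CPM, 10 rose and 10 fell (median 0.02). Of the 2315 other protein-coding genes at that level, 15.2% rose and 42.5% fell (median -0.07). For the 285 of these with a transcript under 1500 bases, the shares were 17.5% and 36.8%. Members at or above 100 CPM were thus called lower less often than other protein-coding genes above that limit, without further matching of level. All 4 sgYES1 libraries lay above all 4 sgNTS libraries in 10 genes and below them in 10, where 19.2% and 20.0% of all genes did so. The large subunit had 7 higher and 7 lower among 51 tested (median 0.02) and the small subunit 8 higher and 4 lower among 32 (median 0.05). Among the genes that rose, log2 fold changes were 0.09 for RPL19, 0.33 for RPS21 and 0.36 for RPL26L1, and those that fell ranged from -0.29 for RPL39L to -0.12 for RPS3A. The split depended on the scaling and on a library: with library totals in place of TMM factors 29 rose and 8 fell (78.4% of calls higher, against 57.7% with TMM, where over all genes 59.8% and 48.5% of calls were higher), with upper-quartile scaling 24 rose and 8 fell, and without sgNTS replicate 1 23 rose and 11 fell.

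The difference between the lines was itself tested in a model over all 16 libraries. The log2 fold change was lower in SUM159PT than in MDA-MB-231 for 42 of 84 genes and higher for 1, RPL7L1, where 11.9% and 12.7% of all 16640 genes tested were called so. The median difference was -0.16, against -0.01 over all genes. At or above 100 CPM it was called lower for 41 of 72 members and higher for 1. Of the 2321 other protein-coding genes at that level, 12.1% were called lower and 28.9% higher (median 0.06). It was lower for 24 of 52 large subunit and 18 of 32 small subunit genes. The count of 42 was 27 without sgNTS replicate 3 or 4 of MDA-MB-231, 26 without its sgYES1 replicate 4, and 25 without SUM159PT sgNTS replicate 3 or sgYES1 replicate 2 or 3. Gene by gene, 42 members fell in SUM159PT and were not called in MDA-MB-231. A further 7 fell in both lines, among them RPL3, RPL7A, RPLP0, RPS24, RPS3A and RPS4X. Another 7 fell in SUM159PT and rose in MDA-MB-231, among them RPL10A, RPL36, RPS12, RPS16, RPS21 and RPS27. RPL26L1 and RPL36AL were among the genes that rose in both lines, and RPL7L1 rose in SUM159PT and fell in MDA-MB-231. Across the 82 members tested in both lines, log2 fold changes had a Pearson correlation of 0.36 and a Spearman correlation of 0.23 between lines, as a description over genes that share libraries.

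**Figure D2:**
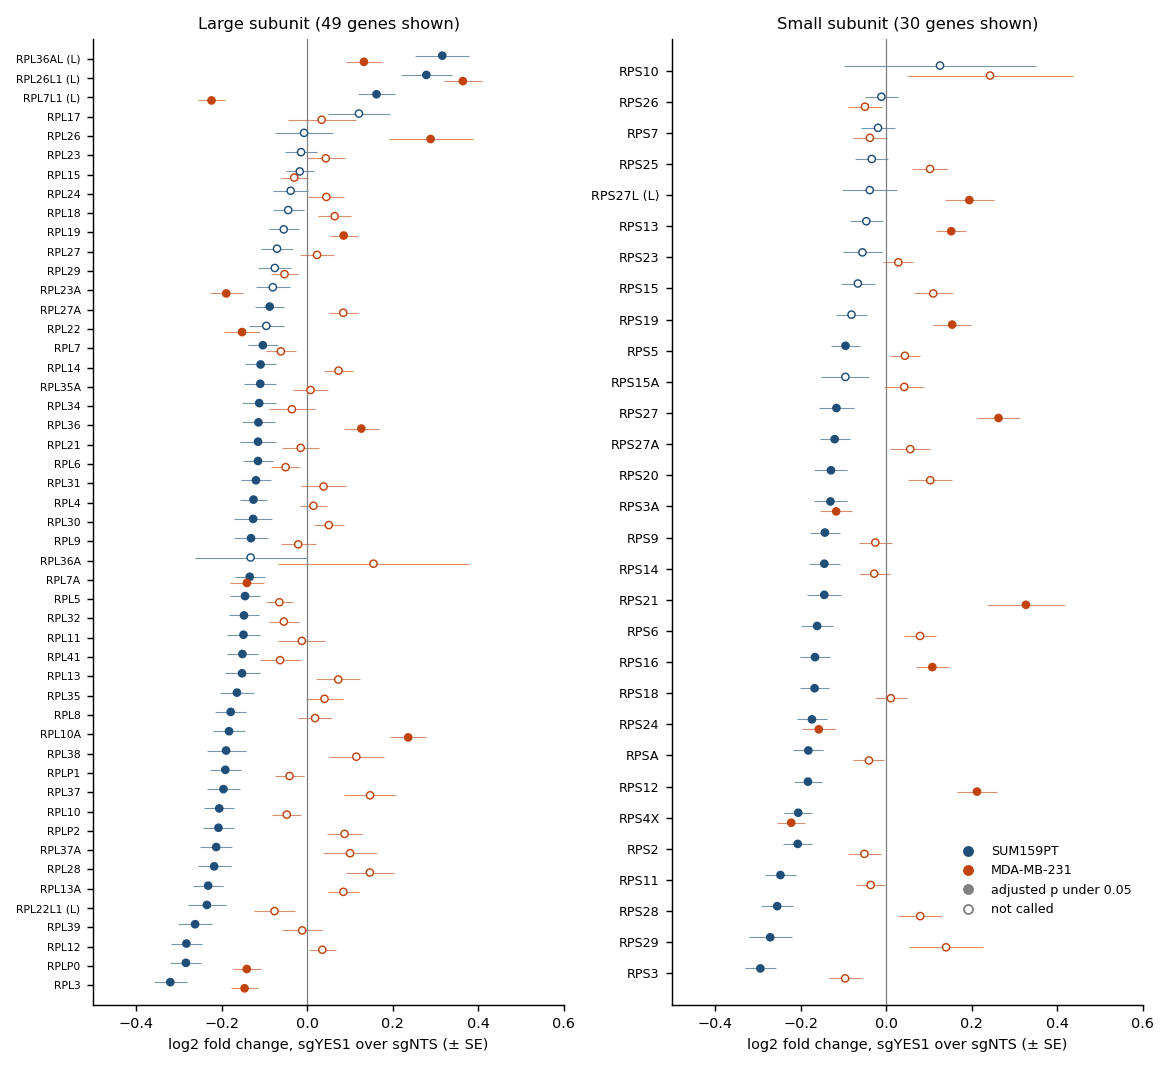
Log2 fold change of ribosomal protein genes tested in both lines, sgYES1 over sgNTS, in SUM159PT and in MDA-MB-231 (x axis, log2 scale; 0 means no difference), with the standard error as a bar. Most SUM159PT points lie left of 0, with a median of -0.13, and the MDA-MB-231 points lie on both sides, with a median of 0.04 (medians over all members tested). A few members are not drawn.

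The large subunit genes given by library include several whose proteins lie near the catalytic centre or the exit tunnel. RPL3, which reaches close to the peptidyl transferase centre, had 1558, 1609.9, 1569 and 1768 CPM in the sgYES1 libraries, against 2010.1, 1959, 2089 and 2107 CPM in the sgNTS libraries of SUM159PT (log2 fold change -0.32 ± 0.0385 SE, edgeR adjusted p = 1.35e-06). In MDA-MB-231 it had 920.1, 903, 926 and 934 CPM in the sgYES1 libraries, against 1047, 1010.2, 1017 and 993 CPM in the sgNTS libraries (log2 fold change -0.15 ± 0.0310 SE, edgeR adjusted p = 0.0016). The groups did not overlap in either line, and the decrease was larger in SUM159PT (difference in log2 fold change -0.18 ± 0.0548 SE, edgeR adjusted p = 0.0148), a call lost in 8 alternatives. RPL8, also close to the peptidyl transferase centre, had 1718, 1904, 1828 and 1933 CPM in the sgYES1 libraries, against 2043, 2111, 2104 and 2143 CPM in the sgNTS libraries of SUM159PT (log2 fold change -0.18 ± 0.0358 SE, edgeR adjusted p = 0.000428). Its MDA-MB-231 values were 1361, 1400.2, 1473 and 1539 CPM in the sgYES1 libraries, against 1450.3, 1399.9, 1456 and 1381 CPM in the sgNTS libraries. The groups were separate in SUM159PT and overlapped in MDA-MB-231 (log2 fold change 0.02 ± 0.0401 SE, edgeR adjusted p = 0.744).

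RPL4, whose extension lines the exit tunnel, had 2200.1, 2144, 2120.3 and 2292 CPM in the sgYES1 libraries, against 2362, 2408, 2388 and 2447 CPM in the sgNTS libraries of SUM159PT (log2 fold change -0.13 ± 0.0322 SE, edgeR adjusted p = 0.00358). In MDA-MB-231 there were 1027, 1017, 1036 and 1069 CPM in the sgYES1 libraries, against 1055, 1013, 1019 and 1011 CPM in the sgNTS libraries (log2 fold change 0.01 ± 0.0315 SE, edgeR adjusted p = 0.74). Only the SUM159PT groups were apart.

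RPL39, a small protein in the wall of the same tunnel, had 190.3, 189, 189 and 199 CPM in the sgYES1 libraries, against 226, 234, 239 and 227 CPM in the sgNTS libraries of SUM159PT (log2 fold change -0.26 ± 0.0396 SE, edgeR adjusted p = 2.1e-05). Its MDA-MB-231 libraries gave 173, 191, 198 and 189.9 CPM in the sgYES1 libraries, against 192, 199, 189.5 and 176 CPM in the sgNTS libraries (log2 fold change -0.01 ± 0.0467 SE, edgeR adjusted p = 0.864). The difference between the lines passed the test (difference in log2 fold change -0.26 ± 0.0619 SE, edgeR adjusted p = 0.00277). RPL35, at the tunnel's opening, had 764, 838, 799 and 818 CPM in the sgYES1 libraries, against 841, 940.1, 931 and 915 CPM in the sgNTS libraries of SUM159PT (log2 fold change -0.16 ± 0.0394 SE, edgeR adjusted p = 0.00211). MDA-MB-231 gave 672, 717, 753 and 766 CPM in the sgYES1 libraries, against 733, 703, 711 and 673 CPM in the sgNTS libraries (log2 fold change 0.04 ± 0.0430 SE, edgeR adjusted p = 0.478). RPL35 groups did not overlap in SUM159PT, though the highest sgYES1 and lowest sgNTS library were close, and they overlapped in MDA-MB-231. RPL23A, which contacts the signal recognition particle at the opening, had 325, 332, 315 and 353 CPM in the sgYES1 libraries, against 340.3, 355, 364 and 349 CPM in the sgNTS libraries of SUM159PT (log2 fold change -0.08 ± 0.0403 SE, edgeR adjusted p = 0.119). It fell in MDA-MB-231, with 336, 330.4, 303 and 327 CPM in the sgYES1 libraries, against 384, 366, 366 and 359 CPM in the sgNTS libraries (log2 fold change -0.19 ± 0.0380 SE, edgeR adjusted p = 0.00109). The difference between the lines was not called for RPL23A (difference in log2 fold change 0.10 ± 0.0577 SE, edgeR adjusted p = 0.231). RPL17, another tunnel protein, was not called in SUM159PT (log2 fold change 0.12 ± 0.0731 SE, edgeR adjusted p = 0.198).

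The stalks of the large subunit hold the elongation factors and move the leaving tRNA. RPLP0, the base of the acidic stalk that recruits elongation factors, had 1611, 1699, 1592 and 1793 CPM in the sgYES1 libraries, against 2004, 2040.4, 2073 and 2074 CPM in the sgNTS libraries of SUM159PT (log2 fold change -0.28 ± 0.0362 SE, edgeR adjusted p = 2.86e-06). In MDA-MB-231 it had 1869, 1802, 1851 and 1925 CPM in the sgYES1 libraries, against 2113, 2038, 2060.4 and 1982 CPM in the sgNTS libraries (log2 fold change -0.14 ± 0.0333 SE, edgeR adjusted p = 0.00339). RPLP0 groups were apart in both lines. RPLP1, bound to RPLP0 as a dimer with RPLP2, had 1045, 1147, 1072 and 1108 CPM in the sgYES1 libraries, against 1206, 1267, 1288 and 1261 CPM in the sgNTS libraries of SUM159PT (log2 fold change -0.19 ± 0.0358 SE, edgeR adjusted p = 0.000219). MDA-MB-231 had 690.03, 666, 683 and 691 CPM in the sgYES1 libraries, against 732, 676, 709 and 684 CPM in the sgNTS libraries (log2 fold change -0.04 ± 0.0343 SE, edgeR adjusted p = 0.358). RPLP1 groups overlapped only in MDA-MB-231. RPLP2 had 563, 605, 579.8 and 598 CPM in the sgYES1 libraries, against 646, 682, 696 and 699 CPM in the sgNTS libraries of SUM159PT (log2 fold change -0.21 ± 0.0367 SE, edgeR adjusted p = 0.000122). MDA-MB-231 had 447, 453, 464 and 493 CPM in the sgYES1 libraries, against 465, 427, 435 and 417 CPM in the sgNTS libraries (log2 fold change 0.09 ± 0.0414 SE, edgeR adjusted p = 0.104). The 3 stalk genes thus fell in SUM159PT, and for each the difference between lines was called, at -0.15 for RPLP0, -0.16 for RPLP1 and -0.31 for RPLP2. The call was lost in most alternative fits for RPLP0 (18) and RPLP1 (14).

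RPL12, at the stalk's foot, had 702, 728, 686 and 723 CPM in the sgYES1 libraries, against 853, 841, 897 and 879.96 CPM in the sgNTS libraries of SUM159PT (log2 fold change -0.28 ± 0.0353 SE, edgeR adjusted p = 2.16e-06). MDA-MB-231 had 612, 583, 589 and 594 CPM in the sgYES1 libraries, against 593, 573, 588 and 562 CPM in the sgNTS libraries (log2 fold change 0.04 ± 0.0321 SE, edgeR adjusted p = 0.401). The RPL12 difference between lines was -0.33, with a 95% interval of -0.43 to -0.23 (edgeR adjusted p = 2.12e-05). RPL10A, in the L1 stalk beside the exit site for tRNA, fell in SUM159PT with 633, 628, 611 and 631 CPM in the sgYES1 libraries, against 689.5, 706, 755 and 706 CPM in the sgNTS libraries (log2 fold change -0.18 ± 0.0364 SE, edgeR adjusted p = 0.000403). It rose in MDA-MB-231 with 666, 681, 689.6 and 679 CPM in the sgYES1 libraries, against 610.3, 582, 584 and 525 CPM in the sgNTS libraries (log2 fold change 0.24 ± 0.0415 SE, edgeR adjusted p = 0.000387). The groups did not overlap in either line, and the difference was -0.43, with a 95% interval of -0.55 to -0.31 (edgeR adjusted p = 4.81e-06).

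Further large subunit genes fell in SUM159PT. RPL13A, which in human monocytic cells also serves outside the ribosome in the GAIT translational silencing complex, had 1932, 2083, 1959 and 2131 CPM in the sgYES1 libraries, against 2361, 2339, 2463 and 2403 CPM in the sgNTS libraries of SUM159PT (log2 fold change -0.23 ± 0.0351 SE, edgeR adjusted p = 2.15e-05). MDA-MB-231 had 1445, 1398, 1468 and 1529.8 CPM in the sgYES1 libraries, against 1414, 1346, 1393 and 1343 CPM in the sgNTS libraries (log2 fold change 0.08 ± 0.0355 SE, edgeR adjusted p = 0.068). The groups were apart in SUM159PT and overlapped in MDA-MB-231 (difference in log2 fold change -0.33 ± 0.0533 SE, edgeR adjusted p = 6.24e-05).

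RPL5 and RPL11 bind 5S RNA and, as free particle, the p53 ligase MDM2. RPL5 had 773, 726, 740.4 and 776 CPM in the sgYES1 libraries, against 833, 835, 814 and 871 CPM in the sgNTS libraries of SUM159PT (log2 fold change -0.15 ± 0.0355 SE, edgeR adjusted p = 0.0025). MDA-MB-231 had 732, 747, 745 and 744 CPM in the sgYES1 libraries, against 802, 786, 760.2 and 749.6 CPM in the sgNTS libraries (log2 fold change -0.06 ± 0.0321 SE, edgeR adjusted p = 0.118). RPL5 groups did not overlap in either line, yet only SUM159PT passed the test. RPL11 had 472, 462, 469.8 and 486 CPM in the sgYES1 libraries, against 496, 554, 545 and 513 CPM in the sgNTS libraries of SUM159PT (log2 fold change -0.15 ± 0.0396 SE, edgeR adjusted p = 0.00477). MDA-MB-231 had 446, 481, 505 and 516 CPM in the sgYES1 libraries, against 525, 517, 473 and 444 CPM in the sgNTS libraries (log2 fold change -0.01 ± 0.0550 SE, edgeR adjusted p = 0.877). The difference between lines was not called for RPL5, with a 95% interval of -0.19 to 0.01, nor for RPL11, at -0.30 to 0.00. RPL6 had 874, 861, 854 and 914 CPM in the sgYES1 libraries, against 912, 976, 963 and 964 CPM in the sgNTS libraries of SUM159PT (log2 fold change -0.11 ± 0.0349 SE, edgeR adjusted p = 0.0119), and its groups overlapped by a narrow margin. MDA-MB-231 had 966, 988, 968 and 969 CPM in the sgYES1 libraries, against 1048, 1006, 1003 and 963 CPM in the sgNTS libraries (log2 fold change -0.05 ± 0.0331 SE, edgeR adjusted p = 0.241), also overlapping. RPL9 had 620.4, 573, 599 and 647 CPM in the sgYES1 libraries, against 648, 690.4, 671 and 677 CPM in the sgNTS libraries of SUM159PT (log2 fold change -0.13 ± 0.0389 SE, edgeR adjusted p = 0.0101). MDA-MB-231 had 179.6, 182, 184 and 191 CPM in the sgYES1 libraries, against 199.6, 188, 181 and 177 CPM in the sgNTS libraries (log2 fold change -0.02 ± 0.0408 SE, edgeR adjusted p = 0.713). RPL9 groups were apart in SUM159PT by a narrow margin and overlapped in MDA-MB-231.

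The small subunit genes given by library include some whose proteins lie at the mRNA channel. RPS3, at the channel's entry and also known as a DNA repair protein, had 1029, 1043, 974 and 1067 CPM in the sgYES1 libraries, against 1227, 1246, 1267 and 1330.4 CPM in the sgNTS libraries of SUM159PT (log2 fold change -0.29 ± 0.0359 SE, edgeR adjusted p = 1.65e-06). MDA-MB-231 had 842, 883, 885 and 951 CPM in the sgYES1 libraries, against 981, 951, 941 and 925 CPM in the sgNTS libraries (log2 fold change -0.10 ± 0.0385 SE, edgeR adjusted p = 0.0579). Groups were apart in SUM159PT and overlapped in MDA-MB-231. RPS2, its neighbour at the entry, had 2717, 3008, 2836 and 3004 CPM in the sgYES1 libraries, against 3292, 3291, 3405 and 3431 CPM in the sgNTS libraries of SUM159PT (log2 fold change -0.21 ± 0.0344 SE, edgeR adjusted p = 6.28e-05). MDA-MB-231 had 1592, 1551, 1581 and 1708 CPM in the sgYES1 libraries, against 1715, 1589, 1688 and 1654 CPM in the sgNTS libraries (log2 fold change -0.05 ± 0.0380 SE, edgeR adjusted p = 0.304). The same description holds for RPS2, whose difference between lines was called (difference in log2 fold change -0.17 ± 0.0554 SE, edgeR adjusted p = 0.0284) but lost in 14 alternatives, most of those fitted. RPS28, at the channel's exit, had 356, 361, 353 and 362 CPM in the sgYES1 libraries, against 413, 442, 440.3 and 422 CPM in the sgNTS libraries of SUM159PT (log2 fold change -0.25 ± 0.0368 SE, edgeR adjusted p = 1.25e-05). MDA-MB-231 had 225, 252, 259 and 268 CPM in the sgYES1 libraries, against 252, 238, 236 and 222 CPM in the sgNTS libraries (log2 fold change 0.08 ± 0.0516 SE, edgeR adjusted p = 0.235). The RPS28 difference between the lines was among the larger ones (difference in log2 fold change -0.35 ± 0.0649 SE, edgeR adjusted p = 0.000315). Pseudogenes of RPS28 held 179 CPM in sgYES1 and 210 CPM in sgNTS libraries of SUM159PT, in the same order as the gene. Of other proteins at the channel or the decoding site, RPS26 and RPS23 were not called in SUM159PT, at -0.01 and -0.06 on the log2 scale. RPS18, in the head, had 1002, 999, 999.96 and 1052 CPM in the sgYES1 libraries, against 1109, 1138, 1165 and 1164 CPM in the sgNTS libraries of SUM159PT (log2 fold change -0.17 ± 0.0332 SE, edgeR adjusted p = 0.000391). MDA-MB-231 had 1039, 1029, 1055 and 1134 CPM in the sgYES1 libraries, against 1081, 1067, 1054 and 1014 CPM in the sgNTS libraries (log2 fold change 0.01 ± 0.0371 SE, edgeR adjusted p = 0.838). RPS18 groups were apart only in SUM159PT.

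Other small subunit genes differed in how the lines compared. RPS12, a protein of the beak of the head, had 725, 724, 721 and 748 CPM in the sgYES1 libraries, against 810.1, 834, 851 and 836 CPM in the sgNTS libraries of SUM159PT (log2 fold change -0.18 ± 0.0334 SE, edgeR adjusted p = 0.00017). MDA-MB-231 had 445, 481, 469.5 and 519.9 CPM in the sgYES1 libraries, against 437, 409, 408 and 397 CPM in the sgNTS libraries (log2 fold change 0.21 ± 0.0456 SE, edgeR adjusted p = 0.00178). Every sgYES1 library was below every sgNTS library in SUM159PT and above it in MDA-MB-231 (difference in log2 fold change -0.41 ± 0.0582 SE, edgeR adjusted p = 1.32e-05). RPS27, a zinc-finger protein also called metallopanstimulin, had 246, 241, 237 and 241 CPM in the sgYES1 libraries, against 246, 269, 264 and 273 CPM in the sgNTS libraries of SUM159PT (log2 fold change -0.12 ± 0.0399 SE, edgeR adjusted p = 0.0244). MDA-MB-231 had 250.1, 265, 277 and 258 CPM in the sgYES1 libraries, against 223, 236, 219 and 197 CPM in the sgNTS libraries (log2 fold change 0.26 ± 0.0504 SE, edgeR adjusted p = 0.000768). The MDA-MB-231 groups were apart, while in SUM159PT the highest sgYES1 library passed the lowest sgNTS library and the call was lost in 7 alternatives.

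RPS4X, the X-linked copy of RPS4 that escapes X inactivation, fell in both lines: 877, 860.1, 861 and 905 CPM in the sgYES1 libraries, against 991, 1012, 1024 and 1036 CPM in the sgNTS libraries of SUM159PT (log2 fold change -0.21 ± 0.0331 SE, edgeR adjusted p = 4.26e-05). MDA-MB-231 had 718, 695, 704 and 748 CPM in the sgYES1 libraries, against 842, 826, 851 and 814 CPM in the sgNTS libraries (log2 fold change -0.22 ± 0.0333 SE, edgeR adjusted p = 0.000101). Its difference between lines lay within a 95% interval of -0.09 to 0.10 on the log2 scale. Over the 9 members on a list of Diamond-Blackfan anaemia genes, 1 rose and 4 fell in SUM159PT, where 19.6% and 19.7% of all genes did, and 2 rose and 1 fell in MDA-MB-231, where 20.8% and 22.1% did. RPS25, needed for translation from several viral internal ribosome entry sites, was called in neither line: 261, 259.6, 268 and 273 CPM in the sgYES1 libraries, against 264, 267, 282 and 279 CPM in the sgNTS libraries of SUM159PT (log2 fold change -0.03 ± 0.0383 SE, edgeR adjusted p = 0.516), and 367, 385, 366 and 395 CPM in the sgYES1 libraries, against 368, 363, 349 and 327 CPM in the sgNTS libraries of MDA-MB-231 (log2 fold change 0.10 ± 0.0412 SE, edgeR adjusted p = 0.0582).

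Of the 6 L-suffixed paralogs tested in SUM159PT, 3 rose and 1 fell, where 19.6% and 19.7% of all genes did. Of the 8 parents of all L-suffixed paralogs, tested or not, 5 fell and 0 rose there. RPL10 and RPL39 were among the parents that fell, while their paralogs RPL10L and RPL39L were not tested in that line. Paralogs were not tested against parents as groups. RPL26L1, an autosomal copy close to RPL26, had 54.5, 50.9, 55.5 and 49.7 CPM in the sgYES1 libraries, against 39.8, 43.6, 46.5 and 44.9 CPM in the sgNTS libraries of SUM159PT (log2 fold change 0.28 ± 0.0596 SE, edgeR adjusted p = 0.000791). MDA-MB-231 had 52.0, 52.5, 56.3 and 53.5 CPM in the sgYES1 libraries, against 42.7, 42.0, 41.4 and 40.2 CPM in the sgNTS libraries (log2 fold change 0.36 ± 0.0448 SE, edgeR adjusted p = 1.67e-05). RPL26L1 was higher in 4 of 4 sgYES1 libraries of both lines.

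The parent of RPL26L1, RPL26, which binds the p53 mRNA, had 24.8, 23.3, 23.7 and 24.0 CPM in the sgYES1 libraries, against 23.7, 25.4, 23.6 and 24.2 CPM in the sgNTS libraries of SUM159PT (log2 fold change -0.01 ± 0.0674 SE, edgeR adjusted p = 0.942). MDA-MB-231 had 27.2, 36.9, 35.5 and 32.8 CPM in the sgYES1 libraries, against 27.8, 31.3, 27.0 and 22.5 CPM in the sgNTS libraries (log2 fold change 0.29 ± 0.0983 SE, edgeR adjusted p = 0.0283). RPL26 groups overlapped in both lines, and its MDA-MB-231 call was lost in 5 of the alternatives that leave out a library (edgeR adjusted p = 0.0523 to 0.0955). RPL36AL, an autosomal retrogene copy of the X-linked RPL36A, had 91.4, 90.3, 91.8 and 90.6 CPM in the sgYES1 libraries, against 67.0, 86.7, 69.0 and 71.3 CPM in the sgNTS libraries of SUM159PT (log2 fold change 0.32 ± 0.0629 SE, edgeR adjusted p = 0.000405). MDA-MB-231 had 117, 117, 121 and 130.1 CPM in the sgYES1 libraries, against 111, 115, 108 and 108 CPM in the sgNTS libraries (log2 fold change 0.13 ± 0.0412 SE, edgeR adjusted p = 0.0178). RPL36AL groups were apart in both lines. Its MDA-MB-231 call was lost in 5 alternatives, the replicate block among them (edgeR adjusted p = 0.0501 to 0.104 over the 5). SUM159PT sgNTS replicate 2 lay above the rest of its group. RPL36A itself had 6.99, 6.17, 7.33 and 5.77 CPM in the sgYES1 libraries, against 7.89, 6.50, 8.57 and 6.19 CPM in the sgNTS libraries of SUM159PT (log2 fold change -0.13 ± 0.131 SE, edgeR adjusted p = 0.451). MDA-MB-231 had 3.36, 3.65, 5.29 and 4.25 CPM in the sgYES1 libraries, against 4.97, 4.41, 3.57 and 2.03 CPM in the sgNTS libraries (log2 fold change 0.16 ± 0.224 SE, edgeR adjusted p = 0.612). At these levels the groups overlapped, and the counting of reads that match both copies was not stated in the labels.

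RPL7L1, a relative of RPL7 involved in large subunit assembly, went its own way. It had 338, 310.2, 324 and 324 CPM in the sgYES1 libraries, against 281, 311, 275 and 297 CPM in the sgNTS libraries of SUM159PT (log2 fold change 0.16 ± 0.0431 SE, edgeR adjusted p = 0.00476), with sgYES1 replicate 2 just below sgNTS replicate 2. MDA-MB-231 had 625, 629, 605 and 591 CPM in the sgYES1 libraries, against 699, 720.03, 718 and 716 CPM in the sgNTS libraries (log2 fold change -0.22 ± 0.0322 SE, edgeR adjusted p = 7.14e-05). It was the only member for which the difference between lines was called higher in SUM159PT (difference in log2 fold change 0.37 ± 0.0558 SE, edgeR adjusted p = 2.14e-05, 95% interval 0.26 to 0.49). RPL7 had 680.3, 652, 683 and 672 CPM in the sgYES1 libraries, against 698, 735, 716 and 754 CPM in the sgNTS libraries of SUM159PT (log2 fold change -0.10 ± 0.0351 SE, edgeR adjusted p = 0.0229). MDA-MB-231 had 406, 411, 409 and 416 CPM in the sgYES1 libraries, against 448, 425, 431 and 406 CPM in the sgNTS libraries (log2 fold change -0.06 ± 0.0344 SE, edgeR adjusted p = 0.169). RPL7 groups were apart in SUM159PT and overlapped in MDA-MB-231, and its SUM159PT call was lost in 5 alternatives.

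RPL22L1, which in mouse is repressed by RPL22, fell in SUM159PT with 124, 113, 116 and 122 CPM in the sgYES1 libraries, against 134, 142, 141 and 145 CPM in the sgNTS libraries (log2 fold change -0.23 ± 0.0444 SE, edgeR adjusted p = 0.000242). MDA-MB-231 had 36.2, 40.4, 38.6 and 39.6 CPM in the sgYES1 libraries, against 40.8, 41.6, 40.7 and 39.9 CPM in the sgNTS libraries (log2 fold change -0.08 ± 0.0476 SE, edgeR adjusted p = 0.217). It was the only paralog that fell in SUM159PT and the only matched paralog with a TOP tract in the window shown above. RPL22 had 137, 135, 133 and 136 CPM in the sgYES1 libraries, against 140.4, 144, 146 and 151 CPM in the sgNTS libraries of SUM159PT (log2 fold change -0.10 ± 0.0408 SE, edgeR adjusted p = 0.0681). MDA-MB-231 had 71.5, 73.1, 68.8 and 75.6 CPM in the sgYES1 libraries, against 79.5, 84.4, 80.3 and 76.7 CPM in the sgNTS libraries (log2 fold change -0.15 ± 0.0431 SE, edgeR adjusted p = 0.0106). RPL22 groups were apart in both lines, and the call was made in MDA-MB-231 alone, where it was lost with library totals and upper-quartile scaling, with the difference between lines not called (difference in log2 fold change 0.05 ± 0.0584 SE, edgeR adjusted p = 0.627). RPS27L, a p53 target gene, had 48.3, 47.9, 51.7 and 49.4 CPM in the sgYES1 libraries, against 47.5, 58.4, 47.8 and 49.8 CPM in the sgNTS libraries of SUM159PT (log2 fold change -0.04 ± 0.0637 SE, edgeR adjusted p = 0.668). MDA-MB-231 had 39.2, 40.1, 38.7 and 37.6 CPM in the sgYES1 libraries, against 34.2, 37.2, 33.9 and 30.5 CPM in the sgNTS libraries (log2 fold change 0.19 ± 0.0578 SE, edgeR adjusted p = 0.0141). RPS27L groups were apart in MDA-MB-231 by a narrow margin and overlapped in SUM159PT. RPL39L, known from male germ cells, had 17.0, 20.2, 20.8 and 22.6 CPM in the sgYES1 libraries, against 25.0, 24.8, 24.7 and 24.3 CPM in the sgNTS libraries of MDA-MB-231 (log2 fold change -0.29 ± 0.0744 SE, edgeR adjusted p = 0.00552). It had no count in any of the 8 SUM159PT libraries.

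Set against its parent in the same library, RPL7L1 stood at 48.2 ± 1.05% of RPL7 in sgYES1 and 40.1 ± 1.66% in sgNTS libraries of SUM159PT, and at 149 ± 5.42% and 167 ± 8.41% in those of MDA-MB-231 (SD, n = 4 each; CPM not corrected for length). Per length, RPL7L1 was at 14.1% of RPL7 in sgYES1 and 11.7% in sgNTS libraries of SUM159PT, and at 43.6% and 48.8% in those of MDA-MB-231. RPL26L1 was at 220 ± 10.9% of RPL26 in sgYES1 and 180 ± 13.3% in sgNTS libraries of SUM159PT, and RPL22L1 at 87.8 ± 3.00% and 96.7 ± 1.21% of RPL22 there. RPL39L was at 10.7 ± 0.867% of RPL39 in sgYES1 and 13.1 ± 0.551% in sgNTS libraries of MDA-MB-231. Those 5 of the 11 ratios compared had no overlap between groups, which gives the smallest two-sided p an exact permutation test of 4 against 4 allows, 0.0286. After Benjamini-Hochberg adjustment over the 11 this p was 0.0629, so none passed 0.05 adjusted. The other 6 had exact permutation p-values of 0.0857 to 0.914. RPL26 lay far below the median member, at 543 CPM in sgYES1 and 607 CPM in sgNTS libraries of SUM159PT. How reads matching both RPL26 and RPL26L1 were counted was not stated, so their ratio may not be that of the transcripts.

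**Figure D3:**
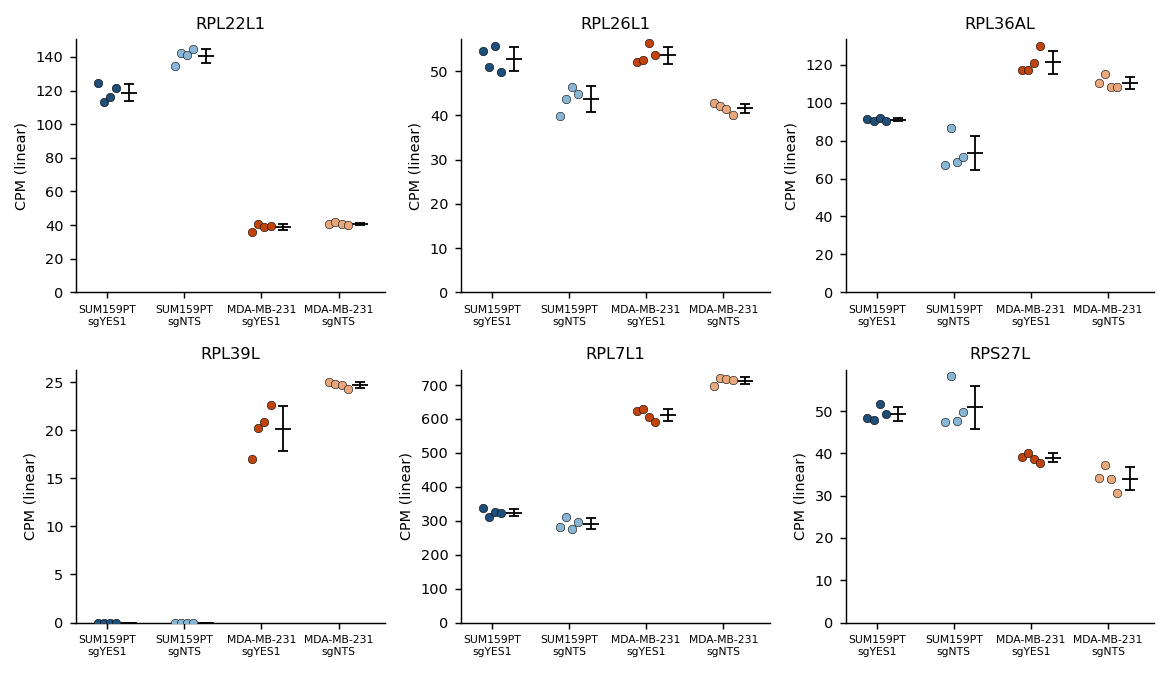
Level (CPM, linear axes from 0) of the 6 L-suffixed paralogs with at least 1 CPM in a group mean, by library, with mean ± SD bars. RPL26L1 and RPL36AL lie higher in sgYES1 libraries of both lines, RPL7L1 moves in opposite directions, and RPL39L is at 0 in SUM159PT.

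Of the paralogs known from particular tissues, RPL3L and RPL10L were near or at 0. RPL3L, the striated muscle form of RPL3, had 10, 8, 6 and 13 counts in sgYES1 and 14, 14, 8 and 20 in sgNTS libraries of SUM159PT, and 13, 11, 14 and 11 against 5, 5, 5 and 4 in those of MDA-MB-231. It passed the filter on low counts in SUM159PT, where it was not called. Its difference between lines was called, at -2.12 on the log2 scale, from these few counts. RPL10L, a testis-expressed retrogene copy of RPL10, had no count in any of the 16 libraries.

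The lines also differed in the control state. In sgNTS libraries, 71 of 84 genes tested were higher and 6 lower in SUM159PT than in MDA-MB-231, 84.5% higher where 40.4% of all 15567 genes tested were called higher and 42.3% lower. The median log2 fold change was 0.44, which is 1.36-fold, against -0.02 over all genes tested. All 4 SUM159PT libraries lay above all 4 MDA-MB-231 libraries in 71 genes and below them in 4, where 38.4% and 39.2% of all genes did so. The large subunit had 41 of 52 genes higher and 5 lower (median 0.41), and the small subunit 30 of 32 higher and 1 lower (median 0.50). Line and culture medium changed together, per the labels, and cannot be told apart.

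RPL9 had 648, 690.4, 671 and 677 CPM in SUM159PT, against 199.6, 188, 181 and 177 CPM in MDA-MB-231 (sgNTS; log2 fold change 1.83 ± 0.0402 SE, edgeR adjusted p = 4.95e-15). Its pseudogenes ran the other way, at 29.9 CPM in SUM159PT and 333 CPM in MDA-MB-231 sgNTS libraries, and the counting of reads matching both was not stated in the labels. RPL22L1 had 134, 142, 141 and 145 CPM in SUM159PT, against 40.8, 41.6, 40.7 and 39.9 CPM in MDA-MB-231 (log2 fold change 1.77 ± 0.0388 SE, edgeR adjusted p = 4.89e-15). RPL22 was higher by a log2 fold change of 0.84, so that RPL22L1 was at 91.8% of RPL22 per length in SUM159PT and 48.2% in MDA-MB-231 sgNTS libraries. RPL4 had 2362, 2408, 2388 and 2447 CPM in SUM159PT, against 1055, 1013, 1019 and 1011 CPM in MDA-MB-231 (log2 fold change 1.21 ± 0.0289 SE, edgeR adjusted p = 1.3e-14). RPS2 had 3292, 3291, 3405 and 3431 CPM in SUM159PT, against 1715, 1589, 1688 and 1654 CPM in MDA-MB-231 (log2 fold change 1.00 ± 0.0324 SE, edgeR adjusted p = 4.72e-13). RPS2 pseudogenes were also higher, at 1257 CPM in SUM159PT and 69.7 CPM in MDA-MB-231. RPL3 and RPS12, given by library above, were higher by 0.99 and 1.00 on the log2 scale.

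A few members ran against that order. RPL39L, at 24.3 to 25.0 CPM in MDA-MB-231 sgNTS libraries, was at least 544-fold lower in SUM159PT, taking 3 counts over the 4 libraries as the limit that a count of 0 allows. Between the sgYES1 libraries it was at least 489-fold lower. RPL7L1 had 281, 311, 275 and 297 CPM in SUM159PT, against 699, 720.03, 718 and 716 CPM in MDA-MB-231 (log2 fold change -1.31 ± 0.0388 SE, edgeR adjusted p = 1.6e-13). RPL36AL was lower by the same comparison (log2 fold change -0.60 ± 0.0655 SE, edgeR adjusted p = 5.89e-07), and RPS25 had 264, 267, 282 and 279 CPM in SUM159PT, against 368, 363, 349 and 327 CPM in MDA-MB-231 (log2 fold change -0.38 ± 0.0401 SE, edgeR adjusted p = 4.32e-07). RPL6 and RPL23A were lower by 0.09 and 0.08 on the log2 scale, with overlapping libraries, and these calls were lost in 2 alternatives for RPL6 and in 6 for RPL23A. RPLP0 (log2 fold change -0.02 ± 0.0295 SE, edgeR adjusted p = 0.614), RPL26L1 (log2 fold change 0.06 ± 0.0528 SE, edgeR adjusted p = 0.338), RPL26 (log2 fold change -0.18 ± 0.0836 SE, edgeR adjusted p = 0.0655) and RPL11 (log2 fold change 0.09 ± 0.0516 SE, edgeR adjusted p = 0.124) were not called.

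**Figure D4:**
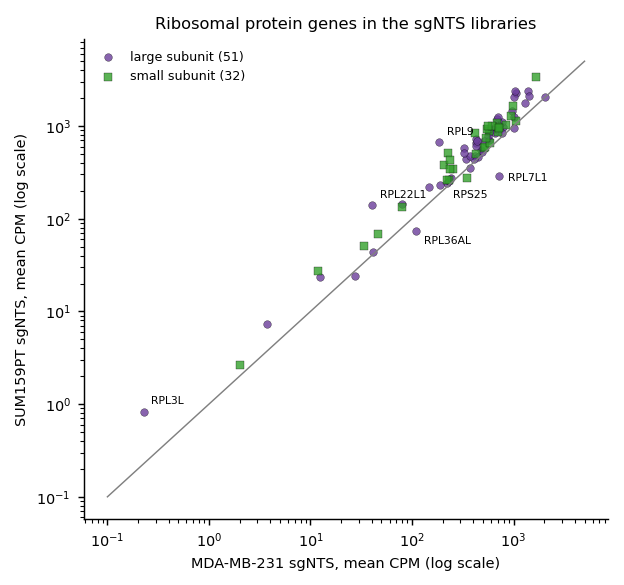
Mean level of each ribosomal protein gene in sgNTS libraries, SUM159PT (y axis) against MDA-MB-231 (x axis), in CPM on log axes, with the line of equal level. Most of the 83 points lie above the line, RPL7L1, RPL36AL and RPS25 lie below it, and RPL39L and RPL10L are left off because they are at 0 in SUM159PT.

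Features that the name rule did not use were set beside the calls. In SUM159PT a TOP tract stood at the annotated start of 36 of the 45 matched genes that fell, 11 of the 19 that were not called and 0 of the 3 that rose, which are the paralogs RPL7L1, RPL26L1 and RPL36AL. In MDA-MB-231 it stood at 5 of the 8 that fell, 34 of the 46 that were not called and 8 of the 13 that rose. Members with at least 10% of their exon bases inside another gene numbered 21, of which 13 fell and 1 rose in SUM159PT, and among 62 tested members under 10%, 43 fell and 3 rose. Across 82 members the log2 fold change had a Spearman correlation with mean CPM of -0.40 in SUM159PT and -0.37 in MDA-MB-231, and with transcript length of -0.06 and -0.32, as a description over genes that share libraries. The 1144 annotated pseudogenes of ribosomal proteins together took 0.255% of counts in sgYES1 and 0.291% in sgNTS libraries of SUM159PT, and 0.148% and 0.143% in those of MDA-MB-231.

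Ribosomal proteins under other names had log2 fold changes closer to 0 than the members' median in SUM159PT. RACK1, a scaffold on the small subunit head, fell there (log2 fold change -0.09 ± 0.0319 SE, edgeR adjusted p = 0.0334), while FAU, a fusion encoding RPS30, was at -0.03 and not called. In MDA-MB-231 FAU rose by 0.13 and RACK1 fell by 0.08 on the log2 scale. Of 13 tested TOP mRNAs that encode no ribosomal protein, 7 fell and 1 rose in SUM159PT (median log2 fold change -0.18), where 19.7% and 19.6% of all genes did. EEF1A1, the tRNA-delivering elongation factor, had 8693 ± 395 CPM in sgYES1 and 10438 ± 103 CPM in sgNTS libraries (log2 fold change -0.26 ± 0.0313 SE, edgeR adjusted p = 1.64e-06). PABPC1, the poly-A binding protein, fell by 0.25 and HNRNPA1, a splicing factor, by 0.27. In MDA-MB-231 6 of the 13 fell and 1 rose (median -0.08), where 22.1% and 20.8% of all genes did, and 2 fell with library totals. VIM fell by 0.32 and HNRNPA1 by 0.24 there, and EEF1D rose by 0.19. The difference between lines was called lower for 3 of the 13, against 11.9% of all genes, with EEF1A1 at -0.19, EIF4B at -0.19 and PABPC1 at -0.15.

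Host RNAs of snoRNAs, several of which carry TOP tracts without encoding a protein, also parted between the lines. In SUM159PT 5 of 10 fell and 1 rose (median -0.22), where 19.7% and 19.6% of all genes did, and in MDA-MB-231 9 rose and 1 fell (median 0.68), where 20.8% and 22.1% did. GAS5 had 150 ± 8.69 CPM in sgYES1 and 188 ± 7.27 CPM in sgNTS libraries of SUM159PT (log2 fold change -0.31 ± 0.0470 SE, edgeR adjusted p = 1.8e-05), and 192 ± 3.30 CPM in sgYES1 and 111 ± 7.24 CPM in sgNTS libraries of MDA-MB-231 (0.78 ± 0.0438 SE, edgeR adjusted p = 1.03e-08). The difference between lines was called lower for 9 of the 10, against 11.9% of all genes, among them GAS5 at -1.11, ZFAS1 at -1.18 and SNHG8 at -1.45.

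Among genes whose proteins build ribosomes, more rose than fell in SUM159PT. Of 51 tested, 29 rose and 1 fell (median 0.18), where 19.6% and 19.7% of all genes did. The smallest p-values were those of BYSL, a small subunit assembly factor, at 0.46 ± 0.0446 SE (edgeR adjusted p = 8.91e-08), GRWD1, whose yeast counterpart is a chaperone of the RPL3 protein, at 0.45 ± 0.0458 SE (edgeR adjusted p = 1.7e-07) and RRS1, a large subunit assembly factor, at 0.53 ± 0.0557 SE (edgeR adjusted p = 2.19e-07). In MDA-MB-231 8 rose and 8 fell (median -0.01; with library totals 15 and 4, median 0.04), where 20.8% and 22.1% of all genes did. The difference between lines was called higher for 17 of the 51, against 12.7% of all genes, with GRWD1 at 0.50, BRIX1 at 0.51 and MRTO4 at 0.37. Mitochondrial ribosomal proteins, encoded in the nucleus and built into a separate ribosome, numbered 78 tested, of which 32 rose and 4 fell in SUM159PT, where 19.6% and 19.7% of all genes did (median 0.11; MRPS12 at 0.38, MRPS23 at 0.29, MRPS7 at 0.26) and 26 rose and 4 fell in MDA-MB-231, where 20.8% and 22.1% did (median 0.05; MRPS24 at 1.81 from a mean of 4.89 CPM in sgYES1 and 1.39 CPM in sgNTS libraries, MRPL2 at 0.40, MRPL36 at 0.33).

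Genes of the mTORC1 pathway gave no common direction, with 5 higher and 4 lower of 16 tested in SUM159PT, where 19.6% and 19.7% of all genes were called so, and 6 higher and 3 lower of 15 in MDA-MB-231, where 20.8% and 22.1% were. The list medians were -0.05 in SUM159PT and 0.11 in MDA-MB-231. Between lines, the difference was called higher for 2 and lower for 3 of the 16, against 12.7% and 11.9% of all genes. It was -2.14 for DDIT4, -2.81 for SESN2 and 0.41 for EIF4E. SESN2, a stress-induced inhibitor of mTORC1, had 41.3 ± 2.05 CPM in sgYES1 and 89.6 ± 24.9 CPM in sgNTS libraries of SUM159PT (log2 fold change -1.11 ± 0.132 SE, edgeR adjusted p = 1.22e-06), and 70.9 ± 8.49 CPM and 21.9 ± 1.17 CPM in those of MDA-MB-231 (1.69 ± 0.0802 SE, edgeR adjusted p = 2.13e-09). DDIT4, another such inhibitor, had 182 ± 22.4 CPM in sgYES1 and 725 ± 112 CPM in sgNTS libraries of SUM159PT (-1.99 ± 0.0870 SE, edgeR adjusted p = 3.96e-13), and rose by 0.14 in MDA-MB-231. EIF4EBP1, a translational repressor under mTORC1, fell by 0.34 in SUM159PT and by 0.18 in MDA-MB-231. AKT1S1, a subunit of mTORC1 that restrains it, rose by 0.31 in SUM159PT and by 0.39 in MDA-MB-231, and RPTOR, its scaffold subunit, by 0.32 and 0.28. EIF4EBP2, a relative of EIF4EBP1, was at -0.14 and not called in SUM159PT and fell by 0.43 in MDA-MB-231. EIF4E rose by 0.20 in SUM159PT and fell by 0.22 in MDA-MB-231. MTOR fell by 0.11 in SUM159PT (edgeR adjusted p = 0.0432) and was not called in MDA-MB-231, and LARP1 was called in neither line. These are messenger levels, and the activity of the complex was not measured.

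**Figure D5:**
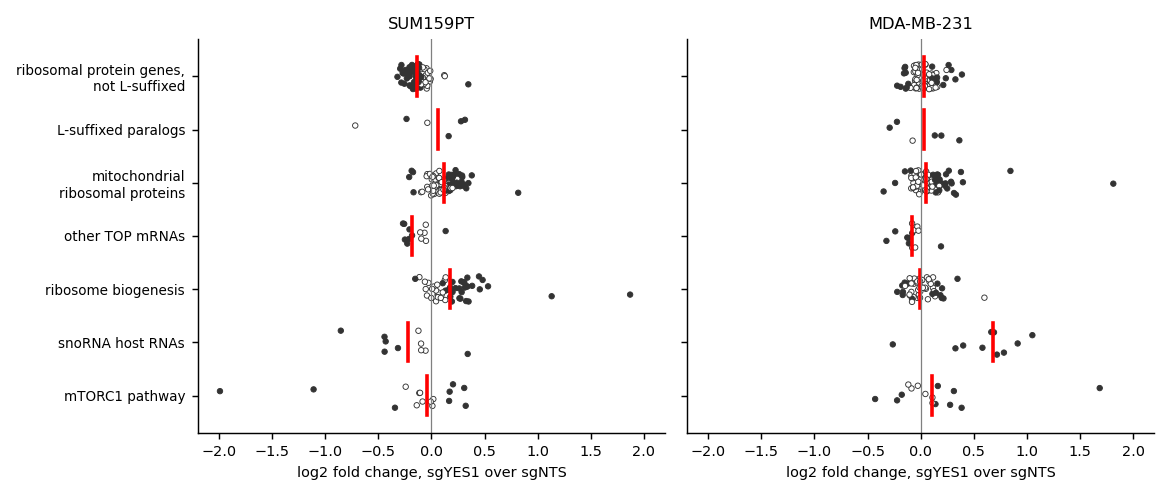
Log2 fold change, sgYES1 over sgNTS, of each gene in 7 lists, in SUM159PT (left) and MDA-MB-231 (right). Filled points have an edgeR adjusted p under 0.05, open points do not, and red bars are list medians. Ribosomal protein genes without the paralogs have a median of -0.13 in SUM159PT and 0.04 in MDA-MB-231, and the biogenesis genes 0.18 and -0.01.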

How the data were processed

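The authors deposited whole-number read counts per gene, a table for each cell line, from poly-A selected RNA. The submitters' processing notes name HISAT2 2.0.5, featureCounts 1.5.0-p3 and the build hg38. They do not state strand or multi-mapping settings, which makes genes with pseudogenes, near-identical copies or overlapping genes uncertain. Each table was taken to hold the line it is named for and its columns were matched to samples by their names. All rows name a gene, and the tables' 58735 genes were placed with GENCODE 29.

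The genes and lists were chosen with earlier results of these data known. Libraries had 14352042 to 25124164 counts. With R 4.3.3 and edgeR 4.0.16, genes were filtered by filterByExpr (minimum count 10, minimum total 15), scaled by TMM and tested with the quasi-likelihood F-test in each line (4 sgYES1 against 4 sgNTS libraries), for the difference between lines over 16 libraries, and between the lines' sgNTS libraries. P-values were adjusted by Benjamini-Hochberg over all genes tested, with a threshold of 0.05. The SE is the absolute log2 fold change over the root of F. CPM printed are scaled by TMM factors over all 16 libraries, while fold changes come from each comparison's own fit. Levels per kb use the shortest principal GENCODE 29 transcript. Paralog ratios were compared by exact permutation. The scripts were tested on simulated data.

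Values by library are given for the 5 members with the smallest p in each direction of each comparison, the paralogs at 1 CPM or more and their parents, the RPLP genes, RPL5 and RPL11, and the 3 members highest per length in each line. A few genes were kept in all fits and counts but are not reported here by name. Other lists (TOP mRNAs, snoRNA hosts, ribosome biogenesis, mitochondrial ribosomal proteins, mTORC1 pathway) are given by counts, medians and genes among those with the smallest p. MTOR, RPTOR and LARP1 are named for their roles. Diamond-Blackfan anaemia genes are given by counts alone. Alternatives were other scalings, DESeq2 1.42.0, no filter, a fold of at least 1.2, both lines fitted together, a replicate block, and leaving out each library. Promoter windows are from RefSeq (GRCh38.p14).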

Additional observations from a re-analysis of the deposited data

Results flagged for a closer look

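In sets of 4 libraries, 1 library lay far from the other 3 in 6 of the 146 sets examined, where chance gives about 1 in 20. SUM159PT sgYES1 replicate 4 was the high library for RPL39, at 199 CPM against 189.0 to 190.3 CPM in the other libraries of its group, for RPS12, at 748 CPM against 721 to 725 CPM, and for RPS18, at 1052 CPM against 999 to 1002 CPM. In MDA-MB-231 sgYES1, RPL5 was low in replicate 1, at 732 CPM against 744 to 747 CPM, and RPL6 was high in replicate 2, at 988 CPM against 966 to 969 CPM. The ratio of large to small subunit counts was 1.78 in MDA-MB-231 sgNTS replicate 4 and 1.79 in the other 3 libraries of that group.

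The change with sgYES1 differed between the lines by a test of the difference itself for 42 members that were lower in SUM159PT and 1 that was higher. Among the genes given by library, the difference in log2 fold change, SUM159PT minus MDA-MB-231, was -0.43 for RPL10A, -0.41 for RPS12 and -0.39 for RPS27. It was -0.35 for RPS28, -0.33 for RPL12, -0.33 for RPL13A and -0.31 for RPLP2. Smaller differences were found for RPL39 at -0.26, RPL35 at -0.22, RPL8 at -0.21, RPS3 at -0.21, RPS18 at -0.19 and RPL3 at -0.18. The smallest were those of RPS2 at -0.17, RPLP1 at -0.16, RPLP0 at -0.15 and RPL4 at -0.15, and each of these calls was lost in most alternative fits. RPL7L1 was the gene called with a positive difference, at 0.37.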

How the results depend on the processing

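No named gene changed direction among those called. In MDA-MB-231 the 15 higher genes became 29 with library totals, 24 with upper-quartile scaling and 4 with a fold of at least 1.2, and the 11 lower became 1 with that fold. Leaving out each library gave 10 to 23 higher and 10 to 12 lower. In SUM159PT the 56 lower genes became 5 with that fold, were 46 to 56 under the other scalings, tools and filters, and 48 to 57 without each library, with 4 higher in each of these apart from the fold. For the difference between lines, 42 lower became 15 with the fold, 35 with DESeq2 size factors or no filter, and 25 to 44 without each library, with 1 to 2 higher. Between lines in sgNTS libraries, 69 to 73 were higher and 4 to 7 lower without each library. Calls for the difference between lines were lost in most alternative fits for RPLP0 (18), RPLP1 (14), RPS2 (14) and RPL4 (12). They were lost in fewer for RPL3 (8), RPL35 (7), RPS18 (5), RPL8 (3) and RPS3 (1). Calls within or between lines were also lost for RPL26 (5), RPL36AL (5) and RPL22 (2) in MDA-MB-231, RPL7 (5) and RPS27 (7) in SUM159PT, and RPL23A (6) and RPL6 (2) between sgNTS libraries. The cause was not tested. For the counts with a fold of at least 1.2, shares of all genes were not computed.

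Replicate numbers did not pair the libraries: deviations of same-numbered libraries correlated at -0.11 to 0.05. With the number as a block, the calls higher and lower were 4 and 55 for SUM159PT, 10 and 11 for MDA-MB-231, 1 and 41 for the difference between lines, and 71 and 5 between lines. Counts were few or absent for RPL3L, RPL10L, RPS10 and RPL36A, and the reason was not tested.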
